A study of Mus musculus with 12 samples.

Results

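Transcripts of 9 regulators of apoptosis were examined in C22 cells, the genes being taken by symbol from the deposited tables: the anti-apoptotic Bcl2, Bcl2l1 and Mcl1, the BH3-only Bcl2l11, Bid, Bad and Bmf, the pore-forming Bak1, and the initiator caspase Casp8. These are 9 of 23282 rows named by gene symbol in the tables, and all 9 were among the 12425 genes with enough counts to be tested. C22 is a mouse club cell line derived from mice that carry the H-2Kb-tsA58 transgene, so that a temperature-sensitive SV40 large T antigen drives growth at the permissive temperature with interferon-γ, and the cells differentiate when both are withdrawn. All 4 groups were cells of this cloned line, labelled as differentiated, after a 2 h serum starvation, and each held 3 libraries: negative control (NC), the same control followed by 24 h of TGF-β1 at 20 ng/ml (NC + TGF-β1), siRNA against Pdcd5 (siPdcd5), and siPdcd5 with the same TGF-β1 treatment (siPdcd5 + TGF-β1). A knockdown lowers a transcript without removing it, and a single immortalized line stands here for an airway cell. Each library was made with a 3′ mRNA-seq kit and held 12809857 to 17714828 counts.

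In the mitochondrial pathway of apoptosis, the anti-apoptotic proteins BCL2, BCL-XL (the product of Bcl2l1) and MCL1 hold the pore-forming BAK and BAX in check at the outer mitochondrial membrane. BH3-only proteins sense damage and stress. BIM (from Bcl2l11) and BID can bind any of the anti-apoptotic proteins and can also activate BAK and BAX directly, whereas BAD and BMF bind a subset of the anti-apoptotic proteins. Once a pore forms, cytochrome c leaves the mitochondrion and caspases are activated. Casp8 starts the other route, from death receptors at the cell surface, and cuts BID into its active form, which joins the routes. Much of this control is on the proteins, which were not measured here. PDCD5, the target of the siRNA, was named for its rise in cells undergoing apoptosis.

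The knockdown was checked first. Pdcd5 stood at 73.5, 65.8 and 65.1 CPM (the counts of a gene scaled to library size with TMM factors) in NC and at 66.3, 69.7 and 67.5 CPM in NC + TGF-β1. It stood at 21.2, 20.0 and 22.1 CPM in siPdcd5 and at 24.1, 21.8 and 26.3 CPM in siPdcd5 + TGF-β1, so every knockdown library lay below every NC library. The fitted level fell by 69.1% without TGF-β1 and fell by 64.5% with it (adjusted p = 1.09e-06 and 5.47e-06 by edgeR). The label of the cells was also checked against defining markers. Of 5 club cell markers none passed the filter, Scgb3a2 and Cyp2f2 were at 0 in all 12 libraries, Scgb1a1 had 1 count over all libraries, and the 5 together reached at most 0.439 CPM in any library. Of 6 fibroblast markers 5 were tested, and their sum was 3749 to 3985 CPM in NC and 7420 to 8041 CPM in NC + TGF-β1, with 2537 to 3119 CPM in siPdcd5 and 5588 to 5943 CPM in siPdcd5 + TGF-β1. The defining transcripts of club cells were therefore near 0, and the cells are called C22 below. A pair of libraries stood apart from their groups: NC + TGF-β1 replicate 2, with a mean correlation of 0.976 with its group and the farthest value of its group for 55.7% of genes, and siPdcd5 replicate 1, with 0.982 and 51.0%. The latter was singled out by the share of farthest values, since NC + TGF-β1 replicate 3 had a correlation of 0.981 and 26.3% of farthest values.

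After TGF-β1, 4 members fell and none rose at an adjusted p under 0.05 (the quasi-likelihood test of edgeR, adjusted by Benjamini-Hochberg over all 12425 genes, which gives every adjusted p below), and these were Bcl2, Bcl2l1, Mcl1 and Bcl2l11 both in NC and in siPdcd5 cells. The 4 genes are set out here with the DNA just before their starts, since they moved together. Bcl2 lies at chr1:106538178-106714274 on the minus strand and Bcl2l1 at chr2:152780668-152831728 on the minus strand, while Mcl1 lies at chr3:95658788-95663176 and Bcl2l11 at chr2:128126038-128162547, both on the plus strand (GENCODE M21, GRCm38). The 250 bases before the RefSeq start nearest to the annotated start are printed 5′ to 3′ in the direction of transcription (GRCm38.p6), and capitals mark any of 4 motifs searched on both strands: CAGAC, the element bound by Smad proteins, TGACTCA, bound by AP-1, GTAAACA, bound by FOXO factors, and the GC box GGGCGG.
Bcl2 promoter: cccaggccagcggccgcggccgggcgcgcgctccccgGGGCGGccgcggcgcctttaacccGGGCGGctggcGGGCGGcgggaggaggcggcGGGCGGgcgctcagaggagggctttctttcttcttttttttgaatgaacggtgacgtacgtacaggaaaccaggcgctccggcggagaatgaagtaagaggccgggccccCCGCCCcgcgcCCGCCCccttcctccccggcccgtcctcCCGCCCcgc
Bcl2l1 promoter: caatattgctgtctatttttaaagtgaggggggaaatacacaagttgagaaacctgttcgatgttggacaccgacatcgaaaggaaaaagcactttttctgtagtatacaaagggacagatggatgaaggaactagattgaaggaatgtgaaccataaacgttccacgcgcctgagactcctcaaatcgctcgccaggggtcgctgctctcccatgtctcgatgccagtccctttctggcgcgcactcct
Mcl1 promoter: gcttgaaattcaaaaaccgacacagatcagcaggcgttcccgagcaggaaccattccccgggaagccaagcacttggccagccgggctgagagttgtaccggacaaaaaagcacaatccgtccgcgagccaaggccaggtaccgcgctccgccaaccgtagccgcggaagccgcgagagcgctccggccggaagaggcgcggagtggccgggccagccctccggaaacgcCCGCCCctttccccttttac
Bcl2l11 promoter: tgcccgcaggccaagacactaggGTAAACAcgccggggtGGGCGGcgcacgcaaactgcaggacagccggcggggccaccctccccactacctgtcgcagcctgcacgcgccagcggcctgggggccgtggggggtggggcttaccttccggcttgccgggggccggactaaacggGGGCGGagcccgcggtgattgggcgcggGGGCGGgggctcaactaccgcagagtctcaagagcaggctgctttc
The Bcl2 window at chr1:106714291-106714540 had 7 GC boxes and a GC content of 74.8%, the highest of the 4. The Bcl2l1 window at chr2:152831729-152831978 had none of the motifs and a GC content of 47.6%. The Mcl1 window at chr3:95658471-95658720 had 1 GC box, 20 bases before the start. The Bcl2l11 window at chr2:128125788-128126037 had 3 GC boxes and the only GTAAACA among the 4, at 227 bases before the start. No CAGAC or TGACTCA was found in these 4 windows. The members that were not called were searched in the same way. Bid and Bad had 3 GC boxes each, and Bak1 had 1 CAGAC, 224 bases before its start. Bmf and Casp8 had none of the motifs. The Casp8 window, at chr1:58802252-58802501, lay inside the gene, past its annotated start at 58795374, and 1 RefSeq start was listed for it. The Bak1 window, at chr17:27028628-27028877 on the minus strand, also lay inside its gene, whose annotated start is 27029009. Among all 32851 RefSeq promoter windows of this length, 42.19% held CAGAC, 4.463% TGACTCA, 3.166% GTAAACA and 32.74% GGGCGG. A match is a run of letters and was not tested as a binding site.

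TGF-β1 in NC cells is the comparison that asks how the pathway's transcripts stood after a day of the cytokine. Of the 9 members, 4 fell, against 15.3% of all genes called and 6.77% of all genes called lower. In 5 members the libraries of the groups did not overlap, against 29.6% of all genes, and these were the 4 that fell and Bid. The median log2 fold change was 0.05 over the 9 members and 0.00 over all genes tested.

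Bcl2, the founding anti-apoptotic member, showed the largest fall of the 9. It was measured at 30.1, 23.7 and 28.5 CPM in NC and at 13.5, 11.8 and 14.5 CPM in NC + TGF-β1. Every treated library lay below every untreated one, and the fitted level fell by 51.5% (log2 fold change −1.04, SE 0.13, adjusted p = 5.38e-05). Bcl2l1, whose main product BCL-XL protects many epithelial cells, was measured at 169, 145 and 143 CPM in NC and at 94.9, 67.3 and 117 CPM after TGF-β1. The groups did not overlap although the treated libraries were widely spread, with the lowest value in the replicate that stood apart, and the level fell by 38.8% (log2 −0.71, SE 0.16, adjusted p = 0.00759). Mcl1, a short-lived anti-apoptotic protein, was measured at 253, 262 and 253 CPM in NC and at 185, 204 and 189 CPM after TGF-β1. Its groups were tight and separate, and it fell by 24.8% (log2 −0.41, SE 0.08, adjusted p = 0.003).

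The only BH3-only member that passed the threshold moved the same way as the anti-apoptotic ones. Bcl2l11, which encodes BIM, was measured at 109.6, 115 and 111 CPM in NC and at 79.0, 81.4 and 83.1 CPM after TGF-β1. It was among the least variable members and fell by 27.3% (log2 −0.46, SE 0.08, adjusted p = 0.00103). Bid was measured at 23.6, 28.2 and 25.4 CPM in NC and at 32.0, 56.0 and 28.9 CPM after TGF-β1. All treated values lay above all untreated ones, 1 of them far above the other two, and the fit gave log2 0.60 (95% interval 0.07 to 1.13, adjusted p = 0.13). Bmf, the least counted member with 48 to 117 counts a library, was measured at 3.65, 3.86 and 5.22 CPM in NC and at 5.10, 8.75 and 5.56 CPM after TGF-β1, and these groups overlapped (log2 0.61, interval 0.03 to 1.19, adjusted p = 0.163).

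Bad, which is held inactive by phosphorylation downstream of survival signals, was measured at 182, 159.6 and 165 CPM in NC and at 186, 121 and 218 CPM after TGF-β1. The treated libraries lay on both sides of the untreated ones, and the difference was log2 0.05 with an interval from −0.34 to 0.44. The pore former Bak1 stood at 46.8, 44.0 and 49.1 CPM in NC and at 57.8, 36.9 and 67.0 CPM after TGF-β1, again with 1 treated library below and the other two above. Its difference was log2 0.21 (interval −0.24 to 0.65, adjusted p = 0.58). Casp8 was measured at 23.4, 26.7 and 27.4 CPM in NC and at 36.1, 24.7 and 40.1 CPM after TGF-β1 (log2 0.38, interval −0.02 to 0.79, adjusted p = 0.216). The low treated value of Bad, Bak1 and Casp8 and the high treated value of Bid and Bmf came from the same library, replicate 2.

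**Figure D1:**
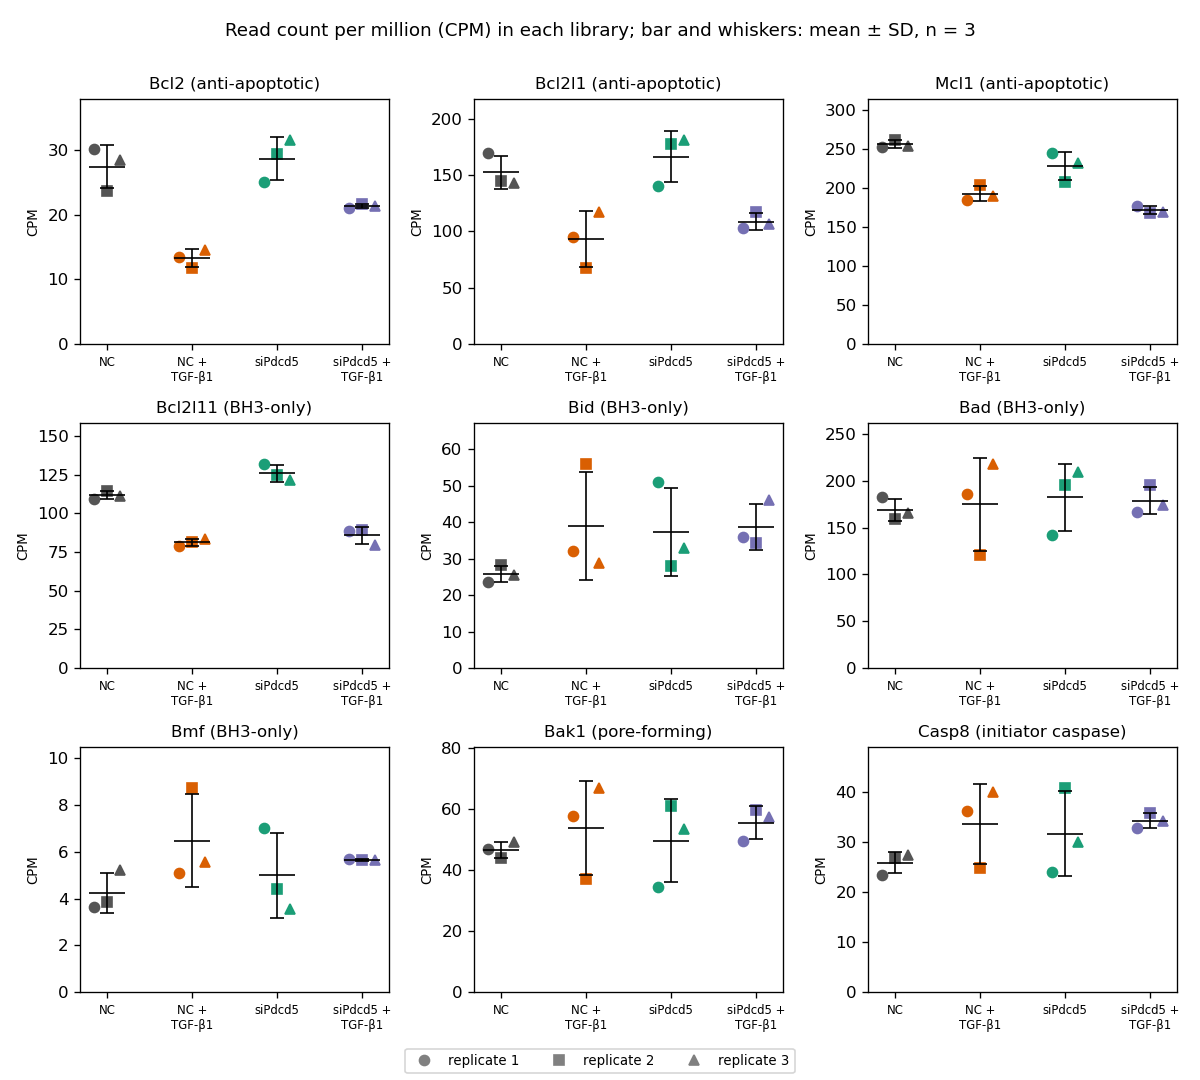
CPM of each of the 9 members (vertical axis, starting at 0) in the 12 libraries, grouped along the horizontal axis; points are libraries with 1 marker shape per replicate number, and bars with whiskers are means ± SD (n = 3). Bcl2, Bcl2l1, Mcl1 and Bcl2l11 lie lower with TGF-β1 in both pairs of groups, and NC + TGF-β1 shows Bcl2 at 11.8 to 14.5 CPM, below the 21.1 to 21.7 CPM of siPdcd5 + TGF-β1.

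The comparison in siPdcd5 cells shares no library with that in NC cells, although all 12 libraries set the estimate of the spread. TGF-β1 in siPdcd5 cells again lowered 4 of 9 members, against 16.1% of all genes called and 7.61% called lower, and those 4 were the members whose groups did not overlap, against 36.1% of all genes. Bcl2 was measured at 25.1, 29.3 and 31.6 CPM in siPdcd5 and at 21.1, 21.7 and 21.4 CPM in siPdcd5 + TGF-β1. The treated libraries lay close together just below the lowest untreated one, and Bcl2 fell by 25.5% (log2 −0.43, SE 0.13, adjusted p = 0.0325). Its adjusted p ranged from 0.00176 to 0.123 over 21 alternatives and stayed under 0.05 in 14. It was above 0.05 without siPdcd5 replicate 2 (0.0833) or 3 (0.123), without any 1 of the 3 siPdcd5 + TGF-β1 libraries (0.102, 0.0827 and 0.092 for replicates 1, 2 and 3), without NC replicate 3 (0.0524), and with quantile normalization (0.0872).

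Bcl2l1 was measured at 140.2, 178 and 181 CPM in siPdcd5 and at 103, 117 and 106 CPM after TGF-β1. The groups were separate, with the lowest untreated value in replicate 1, and Bcl2l1 fell by 34.8% (log2 −0.62, SE 0.16, adjusted p = 0.0176). Its adjusted p rose to 0.0622 without siPdcd5 replicate 2, to 0.0674 without replicate 3, and to 0.0777 and 0.0656 without siPdcd5 + TGF-β1 replicates 1 and 3. Mcl1 was measured at 244, 208 and 232 CPM in siPdcd5 and at 177, 168 and 169 CPM after TGF-β1, a fall of the same size as in NC (log2 −0.41, SE 0.08, adjusted p = 0.00292). Bcl2l11 was measured at 132, 125 and 121 CPM and after TGF-β1 at 88.7, 89.2 and 79.5 CPM. It fell by 0.56 on the log2 scale (SE 0.08, adjusted p = 0.000221), and the groups were far apart relative to their spread. The calls of Mcl1 and Bcl2l11 in both backgrounds, and of Bcl2 and Bcl2l1 in NC, were kept in all 21 alternatives.

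The other 5 members had no difference that passed the test in siPdcd5 cells. Bid was measured at 50.9, 28.1 and 32.8 CPM and after TGF-β1 at 36.0, 34.2 and 45.9 CPM (log2 0.06, interval −0.46 to 0.58). Bad was measured at 142, 195 and 209.5 CPM and after TGF-β1 at 167, 196 and 174 CPM (log2 −0.03, interval −0.42 to 0.36). The treated libraries lay within the range of the untreated ones for both genes. Bmf was measured at 7.01, 4.41 and 3.54 CPM and after TGF-β1 at 5.70, 5.63 and 5.65 CPM (log2 0.19, interval −0.38 to 0.76). Bak1 was measured at 34.5, 60.9 and 53.6 CPM and after TGF-β1 at 49.6, 59.7 and 57.3 CPM (log2 0.16, interval −0.28 to 0.60). Casp8 was measured at 24.1, 40.9 and 30.1 CPM and after TGF-β1 at 32.8, 35.8 and 34.1 CPM (log2 0.11, interval −0.29 to 0.51). In all 3 genes the untreated libraries were the more variable and enclosed the treated ones. Each of these 5 intervals reaches a change, in 1 direction or the other, as large as the fall of Mcl1.

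The fibroblast marker sum, given above, was higher with TGF-β1 in both backgrounds, but the single markers did not move together. Col1a1 carried most of the sum, with group means that went from 2719 to 6119 CPM in NC cells and from 1959 to 4556 CPM in siPdcd5 cells. Dcn went the other way, from 95.7 to 22.6 CPM in NC and from 144 to 41.5 CPM in siPdcd5, Pdgfra lay at 3.80 to 5.90 CPM in the group means, and Lum was at or near 0. The sum of 4 basal cell markers was Krt14 almost alone, since Krt5, Trp63 and Ngfr were at or near 0, and it went from 10.2 to 11.98 CPM in NC to 169 to 210 CPM in NC + TGF-β1, and from 1.99 to 4.51 CPM in siPdcd5 to 75.2 to 88.0 CPM in siPdcd5 + TGF-β1. Of the other lists, alveolar type 2 markers summed to 20.1 to 26.7 CPM, nearly all Abca3, with Sftpa1 at 0 in all libraries. Ciliated markers summed to 202 to 336 CPM, nearly all Tubb4b, with Foxj1, Tekt1 and Dnah5 at or near 0. Leukocyte markers summed to 7.02 to 12.03 CPM, nearly all Cd68, with Ptprc, Adgre1, Cd3e and Lyz2 at or near 0. Endothelial markers summed to 0.585 to 2.47 CPM, mostly Kdr. The part of these shifts in the members' differences was not tested. In RNA from whole cultures, fewer cells that express a gene and less of its RNA per cell cannot be told apart.

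Knockdown of Pdcd5 without TGF-β1 left no member past the threshold. By edgeR's quasi-likelihood test 0 of 9 members were called, against 3.44% of all genes. By the same test 1 member had an unadjusted p under 0.05, against 15.7% of all genes. DESeq2 also called 0 members. In 2 members the libraries of the groups did not overlap, against 23.1% of all genes. One was Bcl2l11, at 109.6 to 115 CPM in NC and 121 to 132 CPM in siPdcd5 (log2 0.17, interval 0.00 to 0.35, adjusted p = 0.311). The other was Mcl1, at 253 to 262 CPM in NC and 208 to 244 CPM in siPdcd5 (log2 −0.17, interval −0.34 to 0.01, adjusted p = 0.355). Bcl2 differed by log2 0.06 (interval −0.20 to 0.33), with overlapping libraries. Bid stood at 0.53 (interval −0.00 to 1.06, adjusted p = 0.321), with its highest siPdcd5 value in replicate 1, the library that stood apart.

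In cells given TGF-β1, 1 member passed the threshold with the knockdown, and this was Bcl2. It was higher in siPdcd5 + TGF-β1 than in NC + TGF-β1 in 3 of 3 libraries, at 21.1, 21.7 and 21.4 CPM against 13.5, 11.8 and 14.5 CPM. The fitted ratio was 1.61 (95% interval 1.32 to 1.95), or log2 0.68 (SE 0.13, adjusted p = 0.0165), in a comparison that called 1.55% of all genes and 0.33% of all genes higher. The lowest siPdcd5 + TGF-β1 library lay well above the highest NC + TGF-β1 library. The siPdcd5 + TGF-β1 group had the smallest spread of the 4 groups (21.4 ± 0.302 CPM, SD, n = 3). The difference was log2 0.61 to 0.75 over 21 alternatives. The adjusted p stayed under 0.05 in 16 of them and was 0.0689 with only the 6 libraries compared, 0.0542 without NC + TGF-β1 replicate 1, and 0.0647, 0.0732 and 0.0732 without siPdcd5 + TGF-β1 replicates 1, 2 and 3.

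Mcl1 was the other member whose groups did not overlap in treated cells (185 to 204 CPM in NC + TGF-β1, 168 to 177 CPM in siPdcd5 + TGF-β1), against 18.9% of all genes. Its difference was log2 −0.17 with an interval from −0.35 to 0.01 (adjusted p = 0.39). Bcl2l1 overlapped between the groups, with log2 0.22 and an interval from −0.13 to 0.57. Bcl2l11, at log2 0.08, had an interval from −0.09 to 0.25, and a difference of the size of its fall after TGF-β1 lies outside that interval. For Bid, Bad, Bmf, Bak1 and Casp8 the differences were −0.01, 0.03, −0.19, 0.04 and 0.03 on the log2 scale, and all their groups overlapped.

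**Figure D2:**
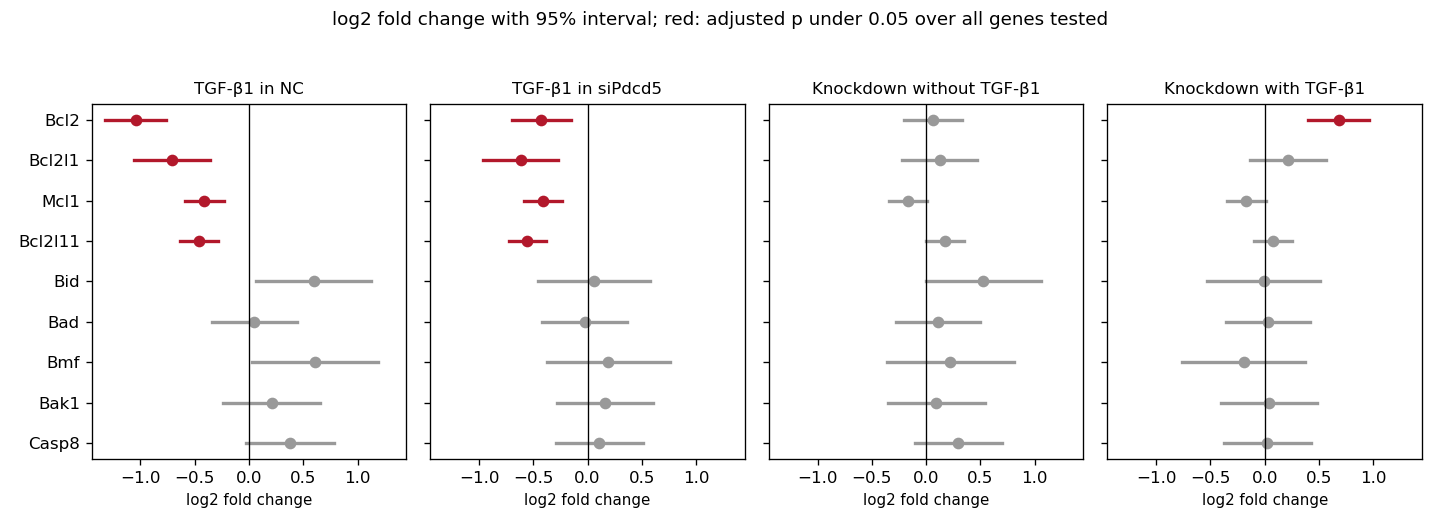
log2 fold change (horizontal axis) of each member (vertical axis) with its 95% interval, in 4 panels for TGF-β1 in NC, TGF-β1 in siPdcd5, knockdown without TGF-β1 and knockdown with TGF-β1; red marks an adjusted p under 0.05 over all genes tested. The same 4 genes are red in both TGF-β1 panels, and Bcl2, at 0.68, is the only red gene in the knockdown panels.

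Whether the response of a member to TGF-β1 differed with the knockdown was asked by the interaction term. By edgeR's quasi-likelihood test the term called 0 of the 9 members and 0% of all genes. The smallest adjusted p of any gene was 0.213, and 5.13% of genes had an unadjusted p under 0.05. Bcl2 was the 1 member among these: it fell by 51.5% in NC and fell by 25.5% in siPdcd5, and the difference of the log2 changes was 0.62 (SE 0.18, interval 0.23 to 1.01, unadjusted p = 0.00404, adjusted p = 0.771). It ranked 63 among the 12425 genes by this p. DESeq2 called 15 genes in all and no member. The comparisons share libraries, since NC + TGF-β1 and siPdcd5 + TGF-β1 each enter a TGF-β1 and a knockdown comparison. The 4 levels of Bcl2 in order were 13.3 ± 1.38 CPM in NC + TGF-β1, 21.4 ± 0.302 in siPdcd5 + TGF-β1, 27.4 ± 3.31 in NC and 28.7 ± 3.31 in siPdcd5 (SD, n = 3), of which the last 2 did not differ beyond their spread. Mcl1 fell by nearly the same amount in both backgrounds, with an interaction of 0.00 and an interval from −0.25 to 0.25. For Bcl2l11 the interaction was −0.09 (interval −0.34 to 0.15), and for Bcl2l1 it was 0.09 (interval −0.40 to 0.58).

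The members differed in how tightly their libraries agreed. The part of this spread in which members were called was not tested. The SD of log2 CPM within groups was 0.06 for Bcl2l11, 0.07 for Mcl1 and 0.14 for Bcl2, below the median of 0.20 over all genes tested. It was 0.24 for Bcl2l1, 0.27 for Casp8, 0.28 for Bad, 0.32 for Bak1, 0.35 for Bmf and 0.36 for Bid. In the pair of libraries that stood apart, the same members lay on the same side of their groups. In NC + TGF-β1 replicate 2, Bak1 was below its group mean by a deviation of −0.50, Bad −0.49, Bcl2l1 −0.43 and Casp8 −0.41, while Bid was above it by 0.59 and Bmf by 0.47. In siPdcd5 replicate 1, Bak1 deviated by −0.48, Casp8 by −0.36, Bad by −0.34 and Bcl2l1 by −0.24, while Bmf deviated by 0.54 and Bid by 0.50. Mcl1 and Bcl2l11 deviated by at most 0.10 in these libraries.

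**Figure D3:**
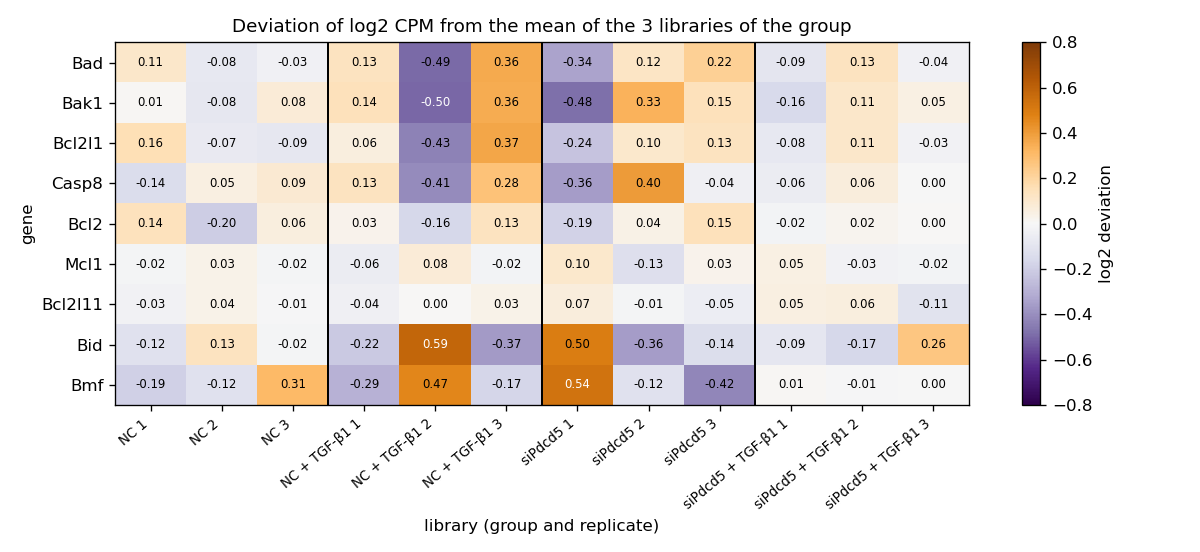
Deviation of log2 CPM from the mean of the 3 libraries of its group, for each member (rows) in each library (columns), written in each cell and coloured from purple (below) to orange (above). NC + TGF-β1 replicate 2 and siPdcd5 replicate 1 hold the deepest colours, with Bad, Bak1, Bcl2l1 and Casp8 below and Bid and Bmf above.

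Leaving out both of these libraries, an alternative chosen after the data were seen, raised the number of calls among all genes as well as among the members. TGF-β1 in NC cells then called 7 members against 29.1% of 12601 genes: the 4 that fell, and Bad (log2 0.25, adjusted p = 0.0341), Bak1 (0.41, adjusted p = 0.00334) and Casp8 (0.55, adjusted p = 0.00115), which were higher. Leaving out NC + TGF-β1 replicate 2 alone, Casp8 was at 0.56 with an adjusted p of 0.0217. TGF-β1 in siPdcd5 cells called 5 members against 24.9% of genes, with Bid added at 0.35 (adjusted p = 0.0392). The knockdown without TGF-β1 called Casp8 (0.45, adjusted p = 0.0165) against 9.09% of genes, and the knockdown with TGF-β1 called Bcl2 alone against 8.43%. The interaction called no member against 1.59% of genes.

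Reads of some members may be shared with overlapping genes. Some of these lie on the same strand, and for the others strand use in the counting is not given in the sources used here. Bid at chr6:120891930-120916853 overlaps Bcl2l13, a BCL2-related gene on the other strand, and Bad at chr19:6941861-6951899 overlaps Gpr137 on the other strand. Bid also overlaps a pseudogene, Gm17812, on the other strand and Gm44260 on its own strand. Bak1 at chr17:27019810-27029009 overlaps Ggnbp1 on the other strand. Bcl2 overlaps an antisense transcript, D630008O14Rik, and, on its own strand, a microRNA gene, Mir3473f, and Gm37053. Casp8 at chr1:58795374-58847503 overlaps an unnamed transcript, Gm37760, on its own strand. Bcl2l1, Mcl1, Bcl2l11 and Bmf (chr2:118528757-118549687) overlap no other annotated gene. Bcl2l13 itself stood at 46.6 to 57.0 CPM in NC and 53.8 to 59.3 CPM in NC + TGF-β1.

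The wider apoptosis pathway was described from 52 other genes chosen by role, of which 40 had enough counts to be tested. TGF-β1 in NC cells called 6 of the 40, 2 higher and 4 lower, and in siPdcd5 cells it called 8, 5 higher and 3 lower, beside the 15.3% and 16.1% of all genes called. The median log2 fold change of the 40 was −0.02 in NC and −0.05 in siPdcd5, and −0.03 over all genes in siPdcd5. Among the pore formers, Bok, a relative of Bak1, rose in both backgrounds, from 7.30 to 10.4 CPM in NC to 16.1 to 17.8 CPM after TGF-β1 (log2 0.93, adjusted p = 0.000558), and by 1.04 in siPdcd5 (adjusted p = 0.000219). Its treated and untreated libraries did not overlap in either. Bax, the partner of Bak1, was at 32.1, 33.7 and 40.7 CPM in NC and at 39.3, 24.0 and 44.2 CPM after TGF-β1, and did not pass the test (log2 0.01, adjusted p = 0.979).

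Of the anti-apoptotic relatives only Bcl2l2 could be tested, and its adjusted p was 0.803 and 0.598 after TGF-β1. Bcl2a1a, Bcl2a1b, Bcl2a1d and Bcl2l10 had 0 to 4 counts over all 12 libraries. Among BH3-only genes, Bbc3, which encodes the p53 target PUMA, fell after TGF-β1 in NC (log2 −0.65, SE 0.14, adjusted p = 0.00473). In siPdcd5 cells its libraries also lay all below, at −0.39 with an adjusted p of 0.0703. Pmaip1, Bik and Hrk had 1, 2 and 23 counts over all libraries and were not tested. Bcl2l12, a BCL2-related gene, was lower in siPdcd5 cells after TGF-β1 (log2 −0.64, adjusted p = 0.0445), a call kept in 7 of 21 alternatives (adjusted p from 0.0327 to 0.147).

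Of the 9 other caspases tested, those called were Casp1, Casp12 and Casp14. Casp1, which cleaves pro-interleukin substrates in inflammasomes, was at 55.1, 61.4 and 56.5 CPM in NC and at 22.2, 28.0 and 23.4 CPM after TGF-β1, a fall by 1.23 on the log2 scale (adjusted p = 1.82e-06). It fell by 0.88 in siPdcd5 cells (adjusted p = 4.32e-05). Casp12, of the same inflammatory group, fell by 1.49 in NC and by 1.18 in siPdcd5 (adjusted p = 1.29e-06 and 1.31e-05), and in both genes no treated library reached an untreated one. Casp14, a caspase of differentiating epidermis, had 3 to 28 counts a library and was called higher in siPdcd5 cells (log2 1.78, SE 0.55, adjusted p = 0.0412), in 8 of 19 alternatives; without siPdcd5 + TGF-β1 replicate 3, which held the 28 counts, it was at 1.15 (adjusted p = 0.250). The executioner Casp6, the initiator Casp9, its platform Apaf1, and Cflar and Xiap, which restrain caspases, were not called in any comparison, with adjusted p from 0.220 to 0.645 after TGF-β1 in NC.

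Cycs, the gene of cytochrome c, rose after TGF-β1 by log2 0.53 in NC and 0.73 in siPdcd5 (adjusted p = 0.0108 and 0.00112). Fas, a death receptor upstream of Casp8, rose in siPdcd5 cells from 12.2 to 14.9 CPM to 19.4 to 24.4 CPM (log2 0.74, adjusted p = 0.0071). In NC its treated libraries were also all above, at 18.8, 29.9 and 19.6 CPM against 16.9, 17.1 and 16.5 CPM (log2 0.43, adjusted p = 0.105). The ligands Fasl, Tnf and Tnfsf10 had 0, 2 and 15 counts and Ripk3 had 0. Dynll1, a dynein light chain that binds BIM and BMF, was at log2 0.32 in siPdcd5 cells (adjusted p = 0.0493), called in 5 of 21 alternatives (adjusted p from 0.0143 to 0.174).

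Knockdown without TGF-β1 called 0 of the 40 genes by edgeR's quasi-likelihood test, against 3.44% of all genes, with 5 at an unadjusted p under 0.05, against 15.7% of all genes, and DESeq2 also called 0. Knockdown with TGF-β1 called 1, against 1.55% of all genes, and this was Birc5, which encodes survivin, an inhibitor of apoptosis that also acts in cell division. Birc5 was at 27.1, 34.2 and 26.8 CPM in NC + TGF-β1 and at 40.3, 42.7 and 40.7 CPM in siPdcd5 + TGF-β1 (log2 0.49, SE 0.11, adjusted p = 0.0419), and it had fallen with TGF-β1 in NC by 0.55 (adjusted p = 0.00282). In treated cells its libraries, like those of Bcl2, did not overlap between the groups. The knockdown call of Birc5 was kept in 9 of 21 alternatives, with an adjusted p from 0.000356 to 0.190. The settings that ended the call included leaving out any 1 of the NC or siPdcd5 + TGF-β1 libraries, leaving out NC + TGF-β1 replicate 1 or 3 (0.137 and 0.124), leaving out siPdcd5 replicate 2 or 3 (0.0543 and 0.0634), and using only the 6 libraries compared (0.190). The interaction called 0 of the 40 by edgeR and 0 by DESeq2. By edgeR 1 of the 40 had an unadjusted p under 0.05 for it, against 5.13% of all genes.

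**Figure D4:**
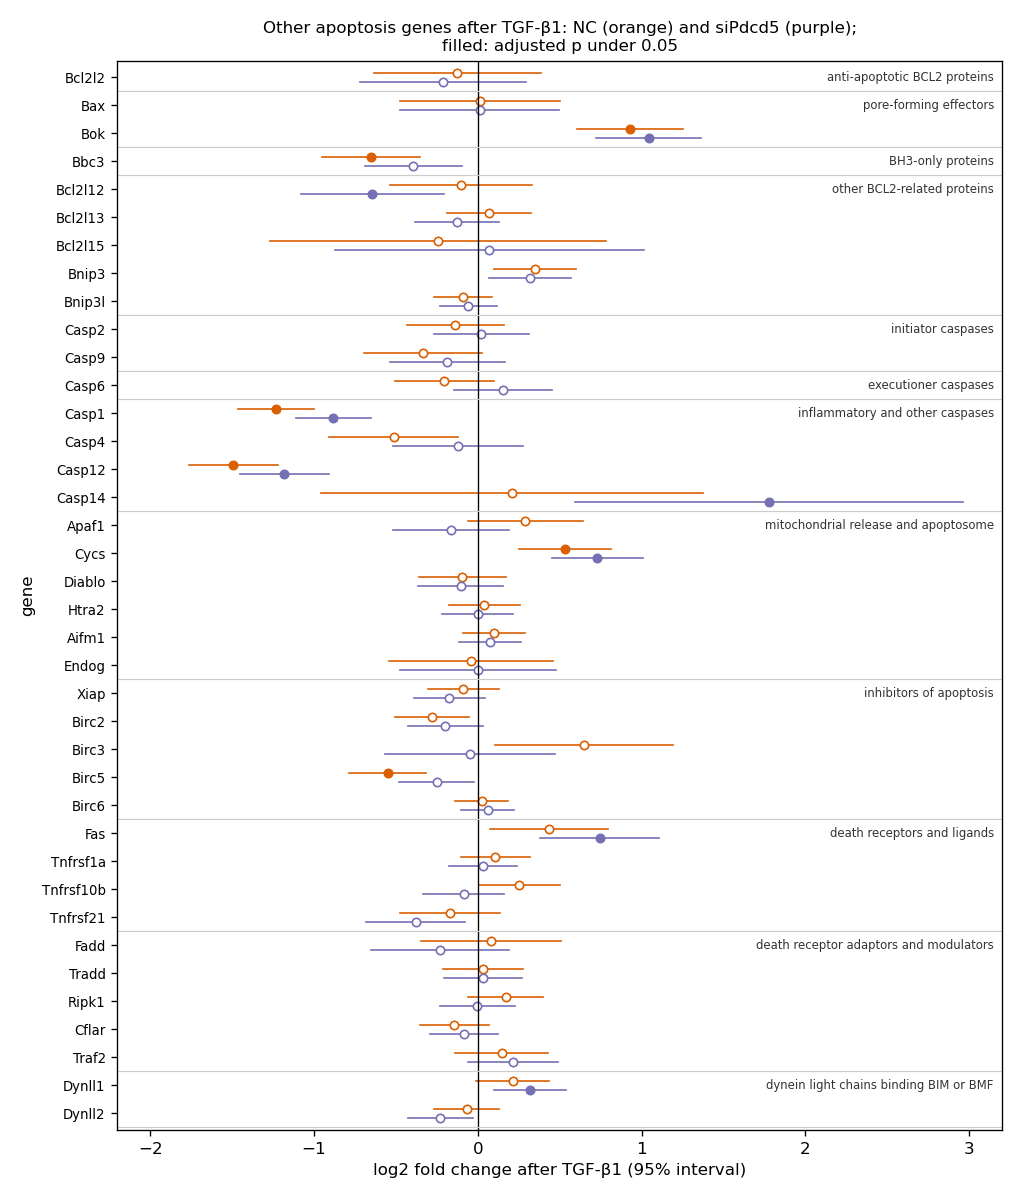
log2 fold change after TGF-β1 (horizontal axis, with 95% interval) of the tested apoptosis genes named or counted beside the 9 members, grouped by role and less those not reported here, in NC (orange) and siPdcd5 (purple); filled points have an adjusted p under 0.05. Bok and Cycs lie to the right and Casp1 and Casp12 to the left in both backgrounds, while the intervals of Bax, Casp6, Casp9 and Apaf1 include 0.

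Over the 12 libraries, the genes whose log2 CPM followed each called member most closely were named from 9128 well-counted genes by Pearson's r, as a description. For Bcl2 these were Tmem53 (r = 0.956), Npm1 (0.951) and Dynlt3 (0.948). For Bcl2l1 they were Rxra (0.973), Uqcc3 (0.967) and Ap5z1 (0.961), for Mcl1 they were Ppl (0.971), Lpl (0.969) and Ube2h (0.967), and for Bcl2l11 they were Sv2a (0.982), Eif4b (0.980) and Frmd4b (0.979). No gene was named for more than 1 member. The 12 points share their 4 groups and their depth.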

How the data were processed

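RNA of 12 libraries (4 groups of 3, 500 ng RNA each, 3′ mRNA-seq, single-end) was measured. Per the labels and the study's methods, the authors aligned reads with Bowtie2 and deposited raw counts per gene symbol from coverage of unique and multiple alignments; the build named is mm10, and the annotation is not given in the sources used here. The quantile normalization the methods name is not in the deposited counts. The 44 repeated entries of 35 symbols were kept as separate rows, and no member was among them. The counts were fitted with edgeR 4.0.16 (R 4.3.3; filterByExpr, TMM, quasi-likelihood test, 4-group model, Benjamini-Hochberg threshold 0.05); SE and 95% intervals were computed from the F statistic. CPM uses TMM-scaled totals; log2 CPM for spread and likeness uses a prior count of 2. The fit was tested on simulated data. Groups and replicate numbers came from the labels; nothing says that they were separate cultures, so p-values measure the spread between these samples. Each of the 12 pairs of libraries within a group differed by more than sampling noise (chi-square per degree of freedom 4.40 to 62.7). The members and gene lists were chosen with earlier results of these data known. All 9 members are named, with apoptosis genes past the threshold and a fixed set of others whatever their result, of which some are not reported here. Alternatives were DESeq2 1.42.0, limma-trend (limma 3.58.1) on quantile-normalized values, upper-quartile scaling, other filters, Rn45s and Malat1 left out, 6-library fits, a replicate block and each library left out; leaving out both libraries that stood apart was added later. No protein sequence was used here.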

Additional observations from a re-analysis of the deposited data

How the results depend on the processing

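Of 936 refits of a member in a comparison, 852 kept direction and side of the threshold, 16 kept direction but lost the call, 6 gained one and 62 changed direction; no difference that passed the test changed direction. The cause of each change was not tested. Fits with fewer libraries also have fewer residual degrees of freedom. Bmf was the least counted member, at 48 to 117 counts a library, and the part of depth in its spread was not tested.

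Leaving out both libraries that stood apart gave 3663 genes for TGF-β1 in NC cells (main 1906), 3139 in siPdcd5 cells (2002), 1146 for knockdown without TGF-β1 (427), 1062 with it (192) and 200 for the interaction (0), with 7 and 1 members for the first comparison and for knockdown without TGF-β1, and 10 and 2 other apoptosis genes there. DESeq2 gave 714 genes for knockdown without TGF-β1, 459 with it and 15 for the interaction. With only the 6 libraries compared, knockdown with TGF-β1 called 44 genes, 0 members and 0 other apoptosis genes. With no filter on low counts, TGF-β1 in siPdcd5 cells called 5 other apoptosis genes (8), and quantile normalization called 1 for knockdown without TGF-β1.

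With replicate number as a block (replicate block), knockdown with TGF-β1 called 107 genes (192), 1 member (Bcl2) and 0 other apoptosis genes, and the block changed no member's call. Birc5 then had an adjusted p of 0.087 there, and Bcl2l12 and Dynll1 had 0.0684 and 0.0849 for TGF-β1 in siPdcd5 cells. The labels give numbers without saying that they mark a shared culture, and same-numbered libraries deviated together with r from 0.00742 to 0.166 for TGF-β1 in NC cells, from −0.0551 to 0.0342 in siPdcd5 cells, from −0.0312 to 0.0796 for knockdown without TGF-β1 and from −0.324 to −0.0364 with it, so the libraries were treated as unpaired. Of the 6 libraries in each of these comparisons, 5, 2, 1 and 0 correlated best with the library of their own number in the other group.

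Leaving out 1 library at a time, knockdown without TGF-β1 called 167 to 667 genes and 0 to 1 other apoptosis genes, knockdown with TGF-β1 called 73 to 322 genes, 0 to 1 members and 0 to 1 other apoptosis genes, the interaction called 0 to 2 genes, and TGF-β1 in siPdcd5 cells called 1371 to 2761 genes, 2 to 4 members and 5 to 10 other apoptosis genes.

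All direction changes were in differences that did not pass the test. Over the fits without 1 library, log2 fold changes for TGF-β1 in NC cells ranged from −0.13 to 0.26 for Bad. For TGF-β1 in siPdcd5 cells they ranged from −0.17 to 0.085 for Bad, from −0.039 to 0.33 for Bak1, from −0.11 to 0.36 for Bid, from −0.00012 to 0.51 for Bmf and from −0.046 to 0.34 for Casp8. For knockdown without TGF-β1 they ranged from −0.0028 to 0.26 for Bad, from −0.080 to 0.29 for Bak1, from −0.030 to 0.15 for Bcl2 and from −0.092 to 0.42 for Bmf. For knockdown with TGF-β1 they ranged from −0.18 to 0.22 for Bad, from −0.17 to 0.23 for Bak1, from −0.19 to 0.35 for Bid, from −0.33 to 0.087 for Bmf and from −0.15 to 0.17 for Casp8. For the interaction they ranged from −0.29 to 0.11 for Bad, from −0.26 to 0.13 for Bak1, from −0.10 to 0.29 for Bcl2l1 and from −0.064 to 0.063 for Mcl1.

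Without both libraries that stood apart, Bak1 stood at −0.046 and Casp8 at −0.054 for TGF-β1 in siPdcd5 cells, Bmf at −0.093 for knockdown without TGF-β1, and Bad at −0.17, Bak1 at −0.16, Bid at 0.35, Bmf at 0.092 and Casp8 at −0.15 for knockdown with TGF-β1. The interaction was then −0.19 for Bcl2l1, 0.12 for Bid, 0.18 for Bmf and 0.10 for Mcl1. Quantile normalization gave −0.050 for Bad with TGF-β1 in NC cells, 0.032 for Bid in knockdown with TGF-β1 and 0.071 for the interaction of Bak1, and the replicate block gave 0.010 for Bid in knockdown with TGF-β1. The interaction of Mcl1 was 0.0016 with upper-quartile factors, 0.0058 with DESeq2, 0.019 with no filter, 0.0011 with at least 10 counts in every library and 0.0033 without Rn45s and Malat1.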
